A study of Mus musculus with 111 samples.

Results

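The Klhl, Kbtbd and Btbd genes encode proteins with a BTB domain, and most of the Klhl and Kbtbd proteins also carry kelch repeats. The members were all genes whose platform symbol begins with Klhl, Kbtbd or Btbd followed by a digit, each represented by the highest-mean probe set among those that list a single gene. There were 53 such genes (33 Klhl, 9 Kbtbd and 11 Btbd) among 18195 genes with a single-gene probe set. Of these, 51 passed the filter on low signals, which 16029 genes passed in all, and Klhl14 and Kbtbd6 did not. The rule picked genes by name, whereas the filter and the choice of probe set used signals. The members were chosen with earlier results of these data known. On every array 36 of the 51 tested members lay above that array's 40th percentile, and 5 did so on under 50 percent of the arrays.

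Many proteins of this family are substrate adaptors of the cullin-3 ubiquitin ligases. The BTB domain binds cullin 3, the kelch repeats bind the protein to be ubiquitinated, and the RING protein Rbx1 brings in the ubiquitin-conjugating enzyme. The ligase is active when cullin 3 carries the small modifier Nedd8, which the COP9 signalosome removes, and the exchange factor Cand1 binds cullins that lack it. In skeletal muscle several members act on the thin filament: KLHL40 stabilises nebulin and leiomodin-3, KLHL41 also binds nebulin, and mutations of KLHL40, KLHL41 or KBTBD13 cause nemaline myopathy in people.

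RNA was measured in 111 gastrocnemius muscles, each hybridised to its own Affymetrix array, from 70 male C57BL/6 mice that the design text gives as 8 weeks old. In the casting cohort the right hindlimb was immobilised in a cast and the left served as control, with 10 cast and 9 uncast muscles taken on day 2, 7 and 8 on day 7, and 9 of each on day 14. In the tenotomy cohort 1 Achilles tendon was cut, with 5 legs of each side at day 2, 7 at day 7 and 5 at day 14. Sham animals, whose tendon was handled and left whole, gave 3, 7 and 8 right muscles at these days, and 7 right muscles came from naive mice. Both legs were available for 25 casting and 16 tenotomy animals. The labels conflict on the operated leg: the samples' own entries call the left leg tenotomy and the right leg control, whereas the design text names the right tendon as the severed one. Every leg difference below is therefore right minus left. In the casting cohort this is cast minus control, and in the tenotomy cohort it is labelled control minus labelled tenotomy, the opposite sign to treated minus control as the samples are labelled. The leg side goes with the treatment in both cohorts, and each cohort has its own animals, so side and cohort cannot be told apart from treatment.

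The tissue label held on every array, since all 10 skeletal muscle fibre markers lay above the 40th percentile on all 111 arrays. Other cells moved with the groups. The mean log2 level of 10 macrophage markers stood 3.08 ± 0.15 (SD, n = 5) above naive in right legs of the tenotomy cohort at day 2, 1.68 ± 0.40 (n = 7) at day 7 and 1.03 ± 0.35 (n = 5) at day 14, against -0.18, -0.18 and -0.35 in the left legs. In cast legs it stood at 0.36, 1.07 and 1.40, against 0.78, 0.69 and 0.55 in the control legs of the cohort. The tenocyte list (4 markers) stood at 0.31, 1.07 and 1.34 in right legs of the tenotomy cohort against -0.65, -0.27 and -0.19 in the left, and the fibroblast list (5 markers) at 0.31, 0.81 and 0.77 against -0.68, -0.33 and -0.42. The 2 tested adipocyte markers lay at -1.16 to -1.74 in both legs of the tenotomy cohort, against -0.28 to -0.45 in sham. In cast legs the 2 tested Schwann cell markers lay at 0.71, 1.05 and 1.03 against 0.59, 0.47 and 0.54 in control legs, and the neutrophil list (4 markers) at -0.08, 1.31 and 1.18 against 0.08, 0.38 and 0.48. The fibre list was lower than naive in cast legs (-1.01, -1.04 and -0.96), in their control legs (-0.72, -0.89 and -0.96) and in right legs of the tenotomy cohort (-0.64, -0.66 and -0.48), and nearer to naive in the left (-0.14, -0.32 and -0.23). The log2 ratio of the 3' to the 5' actin probe sets averaged -0.02, 0.11 and 0.08 in right legs of the tenotomy cohort, -0.83, -0.38 and -0.58 in left legs and -1.31 to -1.12 in sham. The part of these shifts in the results below was not tested, and in whole muscle fewer cells of a type and less RNA per cell cannot be told apart.

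**Figure D1:**
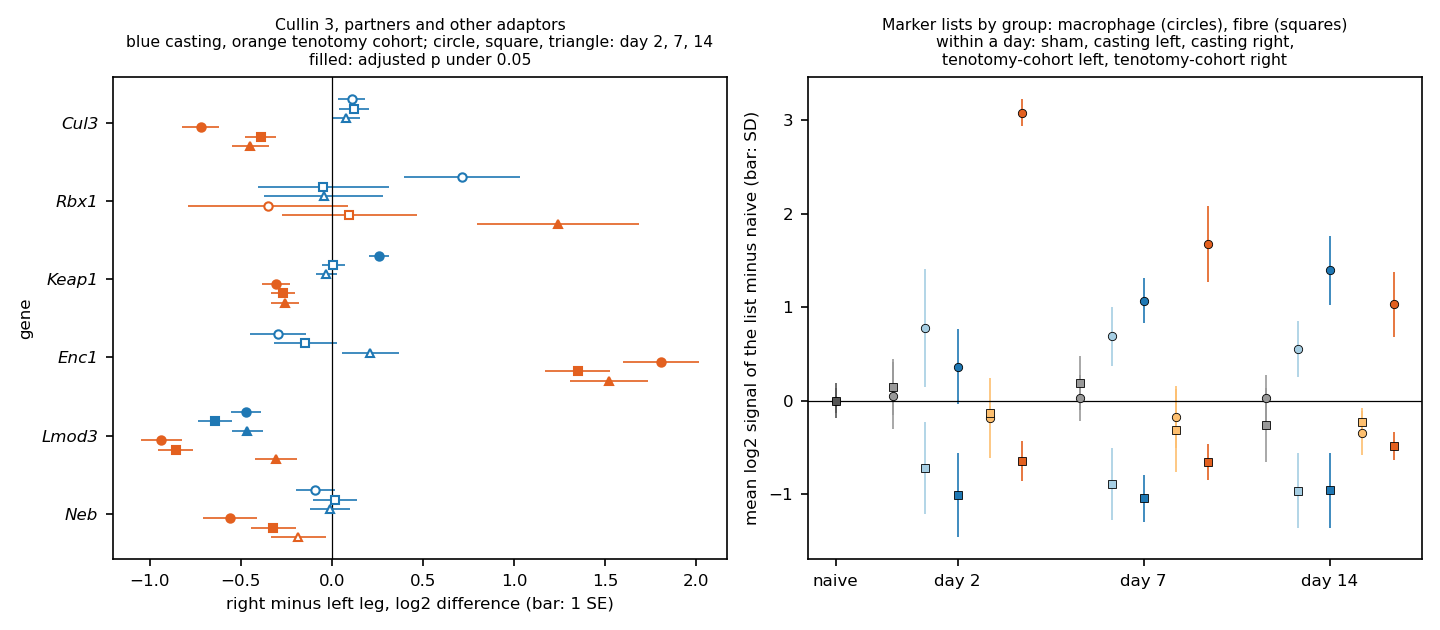
Left panel: right minus left log2 difference (± SE of the limma fit) of Cul3, Rbx1, Keap1, Enc1, Lmod3 and Neb in each cohort and day. Right panel: mean log2 level of the macrophage and skeletal muscle fibre marker lists relative to naive (± SD over arrays) in each group. Enc1 stands 1.81 to the right-leg side at day 2 of the tenotomy cohort, and the macrophage list reaches 3.08 in the right legs of that day.

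Differences are on the scale of log2(signal + 3.982), and a member was called when its limma p-value, adjusted by the Benjamini-Hochberg method over all 16029 genes, was under 0.05. In the casting cohort 13 of 51 members (25.5%) were called at day 2, against 24.3% of all genes, 3 higher in cast legs (11% of all genes were called higher) and 10 lower (13.3% called lower). At day 7 the count was 2 (3.92%), both lower, against 8.77% of all genes (4.22% higher, 4.55% lower). At day 14 it was 8 (15.7%), 2 higher and 6 lower, against 13.2% of all genes (7.17% higher, 6.04% lower). These shares lie near or below those of all genes, so the number called is not a result about the family. The median difference of the members at day 2 was -0.12, beside -0.03 over all genes.

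Within the tenotomy cohort 17 members (33.3%) were called right against left at day 2, 8 higher and 9 lower in the right leg, against 36.7% of all genes (20.8% higher, 15.9% lower). At day 7 the count was 15 (29.4%), 9 higher and 6 lower, against 32.9% (18.3% higher, 14.6% lower). At day 14 it was 20 (39.2%), 13 higher and 7 lower, against 23.2% (13.5% higher, 9.71% lower). The day 14 share stood above that of all genes, and it rested partly on single arrays and probe sets: the count was 12 without right-leg replicate 1 and 11 when the probe sets of a gene were averaged. Groups that did not overlap at all were found for 1 member at each casting day, where 2.28%, 0.736% and 0.824% of all genes did not overlap at days 2, 7 and 14. In the tenotomy cohort 8, 2 and 10 members did not overlap, where 23.1%, 6.46% and 14.7% of all genes did not.

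**Figure D2:**
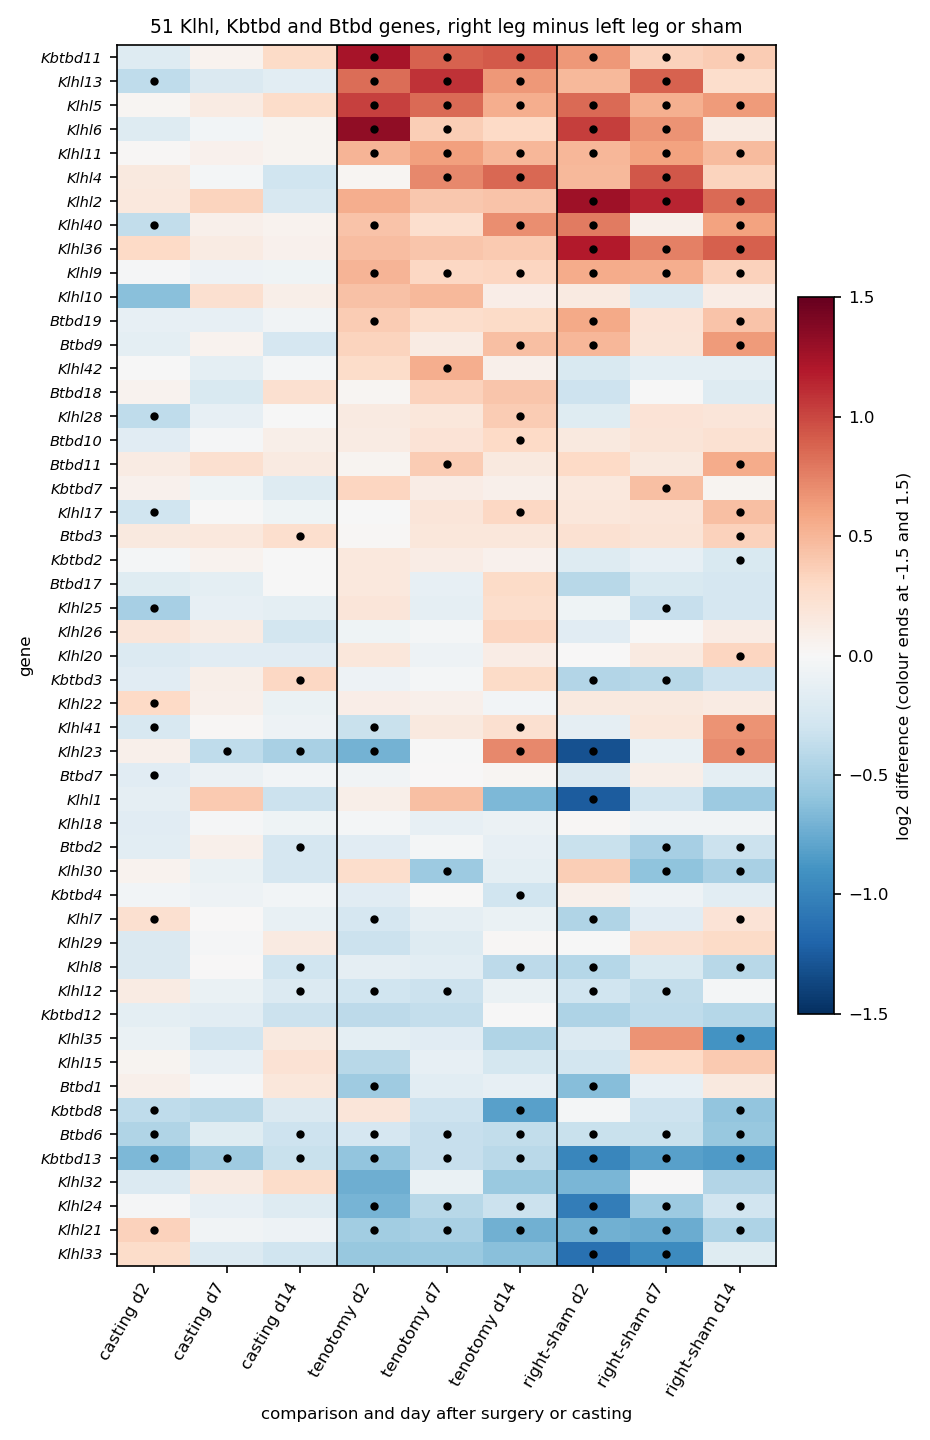
Log2 difference of each tested member (rows) in the 6 leg comparisons and in right tenotomy-cohort legs against sham on each day (columns). Rows are ordered by the mean right-minus-left difference over the days of the tenotomy cohort, and called values are marked. Kbtbd13 is lower in all 6 leg comparisons, and the Klhl5, Klhl9, Klhl11, Klhl13 and Kbtbd11 rows are higher in the right leg on each day of the tenotomy cohort.

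Kbtbd13, a muscle kelch protein that binds cullin 3, was the only member lower in the right leg in all 6 leg comparisons, a pattern that 0.692% of all genes shared. It was also the only member lower in cast legs on all 3 days, as were 1.7% of all genes. Its signal at day 2 ran from 77.8 to 174 in cast legs (median 125, n = 10) and from 166 to 222 in control legs (median 196, n = 9). At day 7 it ran from 104 to 157 in cast legs (median 139, n = 7) and from 164 to 232 in control legs (median 201, n = 8). The groups overlapped slightly at day 2 and not at all at day 7, and the cast leg was the lower one in 9 of 9 and 7 of 7 pairs. The log2 differences were -0.68 (SE 0.10, adjusted p = 1.89e-08) at day 2, -0.53 (SE 0.11, adjusted p = 3.18e-04) at day 7 and -0.34 (SE 0.10, adjusted p = 0.0142) at day 14. By day 14 the cast legs ran from 120 to 206 (median 173, n = 9) and the control legs from 165 to 263 (median 209, n = 9), and the groups overlapped widely.

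The right legs of the tenotomy cohort gave Kbtbd13 signals of 85.4, 111, 106, 116 and 98.4 at day 2, and the left legs 139, 157, 133, 196 and 169. At day 7 the right legs ran from 117 to 170 (median 139, n = 7) and the left from 136 to 219 (median 174, n = 7). At day 14 the right legs gave 134, 124, 91.0, 136 and 166, and the left legs 155, 141, 181, 191 and 192. Every right leg lay under every left leg at day 2, and the groups overlapped at days 7 and 14, with the right leg lower in every pair (5 of 5, 7 of 7 and 4 of 4). The differences were -0.60 (SE 0.13, adjusted p = 1.29e-04), -0.34 (SE 0.11, adjusted p = 0.0127) and -0.41 (SE 0.14, adjusted p = 0.0192). The last was lost without right-leg replicate 3 (-0.29, adjusted p = 0.154), left-leg replicate 4 (-0.37, adjusted p = 0.0538) or left-leg replicate 5 (-0.37, adjusted p = 0.0533), and when the animal was fitted as fixed (-0.39, adjusted p = 0.058). The probe set used is of a kind whose probes can match other transcripts. A second probe set of Kbtbd13 gave -1.08, -0.61 and -0.49 in casting and -0.92, -0.58 and -0.61 in the tenotomy cohort.

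Against sham, the right legs of the tenotomy cohort were lower in Kbtbd13, with log2 differences of -0.97, -0.81 and -0.85 at days 2, 7 and 14, with no overlap on any day (adjusted p from 4.64e-07 to 1.01e-08). The left legs were also lower than sham at day 7 (-0.47) and day 14 (-0.45, adjusted p = 0.00212 and 0.0059), and their value at day 2 was -0.38 and not called. These comparisons share arrays with the leg comparison of the same day. Sham muscles gave 248, 167 and 209 at day 2, against 149 to 271 in naive mice (median 209, n = 7), so these groups overlapped.

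**Figure D3:**
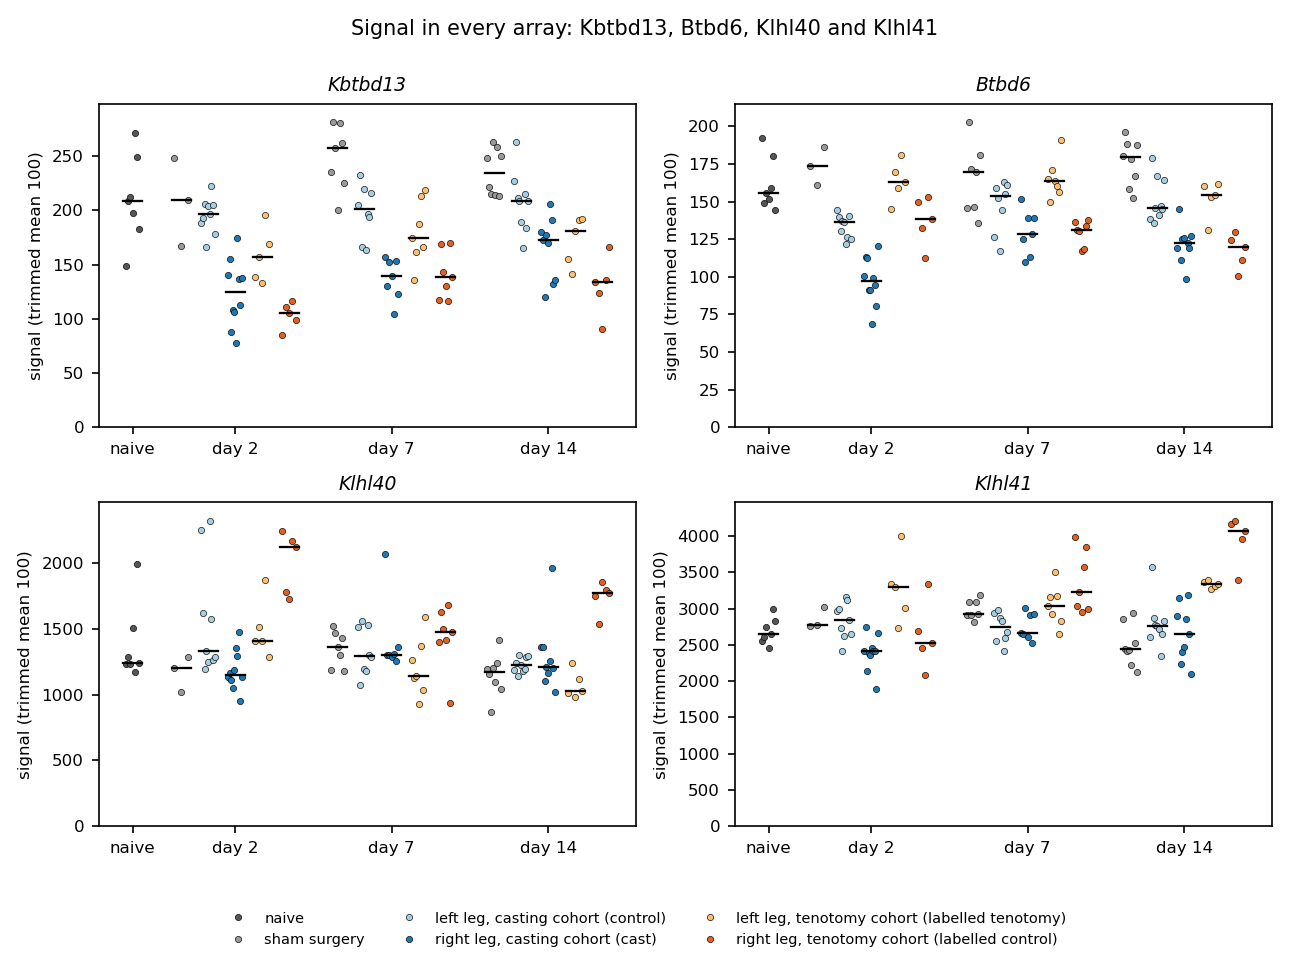
Signal of Kbtbd13, Btbd6, Klhl40 and Klhl41 on every array (points), by group, with a line at each group's median. Kbtbd13 and Btbd6 sit lower in cast legs and in right legs of the tenotomy cohort, and Klhl40 in right legs of that cohort at day 14 lies between 1539 and 1857, above the 978 to 1239 of the left legs.

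The differences of Klhl40, the stabiliser of nebulin and leiomodin-3, ran opposite ways in the cohorts at day 2. Its signal was 954 to 1474 in cast legs (median 1146.5, n = 10) and 1197 to 2323 in control legs (median 1335, n = 9), and the difference was -0.37 (SE 0.10, adjusted p = 0.00175, lower in 8 of 9 pairs). The tenotomy cohort's right legs gave 2247, 1778, 1725, 2165 and 2121 at day 2, and the left legs 1409, 1514, 1411, 1874 and 1283. All but 1 left leg lay under the lowest right leg, and the difference was 0.42 (SE 0.13, adjusted p = 0.00604). At day 14 the right legs gave 1749, 1539, 1857, 1798 and 1775 and the left legs 1010, 1239, 978, 1116 and 1030, with no overlap (0.70, SE 0.13, adjusted p = 1.91e-05). The day 7 difference of 0.25 was not called, and neither were those of casting at days 7 and 14. The right legs also lay above sham by 0.77 at day 2 and 0.61 at day 14 (adjusted p = 3.43e-05 and 3.02e-05), with no overlap. The difference between the cohorts was 0.79 at day 2 (SE 0.16, adjusted p = 3.15e-05) and 0.65 at day 14 (adjusted p = 0.00468).

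Klhl41, the other nebulin-binding kelch protein, fell in cast legs at day 2, from 2419 to 3160 in control legs (median 2839) to 1898 to 2744 (median 2411.5), a difference of -0.24 (SE 0.07, adjusted p = 0.00274). Right legs of the tenotomy cohort gave 2688, 2463, 2082, 3334 and 2523 at day 2 and the left legs 3334, 3303, 2727, 4002 and 3013. The groups overlapped, and the difference of -0.33 (SE 0.09, adjusted p = 0.00206) shrank to -0.08 (adjusted p = 0.5) after quantile normalization. On day 14 the right legs gave 4165, 4214, 3399, 3967 and 4074 and the left legs 3370, 3394, 3276, 3309 and 3343, with no overlap. That difference of 0.24 (SE 0.09, adjusted p = 0.0428) lost its call when each of 9 of the 10 arrays was left out in turn (all but right-leg replicate 3), with values of 0.22 to 0.25, and when the animal was fitted as fixed (0.24, adjusted p = 0.136). Against sham at day 14, the right legs were higher by 0.67 (adjusted p = 2.54e-10) and the left legs by 0.43 (adjusted p = 8.11e-05), both with no overlap. Between days 2 and 14 the right-minus-left difference of Klhl41 changed by 0.57 (adjusted p = 0.0012).

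The other striated-muscle members were Klhl30, Klhl33 and Kbtbd12. Klhl30 fell at day 7 in right legs of the tenotomy cohort, which ran from 248 to 529 (median 368, n = 7) against 453 to 658 in the left (median 535, n = 7), a difference of -0.54 (SE 0.13, adjusted p = 4.24e-04, lower in 7 of 7 pairs). Klhl33 was called in no leg comparison and was lower than sham in right legs at days 2 and 7 (-1.11 and -0.94, adjusted p = 0.00466 and 0.000751), at signals as low as 4.47. Kbtbd12 was called in no comparison. Of these 6 members, 3 fell at day 2 of casting and 1 at each later day (Kbtbd13), and in the tenotomy cohort 1 rose and 2 fell at day 2, 2 fell at day 7, and 2 rose and 1 fell at day 14. Of all genes, 13.3%, 4.55% and 6.04% were lower at the casting days, and in the tenotomy cohort 20.8%, 18.3% and 13.5% were higher and 15.9%, 14.6% and 9.71% lower in the right leg. Of 9 kelch genes listed as striated-muscle genes, Klhl31, Klhl34 and Klhl38 were not analysed here.

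Promoter windows of 250 bases before the annotated start came from RefSeq (GRCm38.p6) and were found for 44 of the 53 members. The 4 shown belong to the muscle kelch members and Btbd6, whose differences are described above and next, and each is written along its gene's strand. That of Klhl40 lies at chr9:121777357-121777606 on the + strand, that of Klhl41 at chr2:69669870-69670119 on the + strand, that of Kbtbd13 at chr9:65391653-65391902 on the - strand, and that of Btbd6 (the first of 2 windows) at chr12:112976232-112976481 on the + strand. Capitals mark matches, on either strand, to any of 6 motifs: the E-boxes CAGCTG and CACGTG, the MEF2-type CTANNNNTAG, the forkhead GTAAACA, the antioxidant-type TGACNNNGC and the TATA box TATAAA.
Klhl40: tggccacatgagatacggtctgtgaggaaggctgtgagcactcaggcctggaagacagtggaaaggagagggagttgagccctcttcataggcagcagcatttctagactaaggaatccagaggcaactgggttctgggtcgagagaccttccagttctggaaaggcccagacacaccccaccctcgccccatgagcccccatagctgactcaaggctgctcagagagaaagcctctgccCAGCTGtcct
Klhl41: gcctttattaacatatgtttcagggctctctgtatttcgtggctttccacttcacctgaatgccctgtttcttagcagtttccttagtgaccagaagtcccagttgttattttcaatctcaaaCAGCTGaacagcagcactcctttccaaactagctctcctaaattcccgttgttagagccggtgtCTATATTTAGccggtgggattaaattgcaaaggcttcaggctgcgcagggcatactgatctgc
Kbtbd13: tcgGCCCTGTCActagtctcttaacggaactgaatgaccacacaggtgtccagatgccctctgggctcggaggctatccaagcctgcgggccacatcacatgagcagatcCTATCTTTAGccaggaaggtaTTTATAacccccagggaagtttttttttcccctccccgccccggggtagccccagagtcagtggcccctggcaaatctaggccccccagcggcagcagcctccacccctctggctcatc
Btbd6: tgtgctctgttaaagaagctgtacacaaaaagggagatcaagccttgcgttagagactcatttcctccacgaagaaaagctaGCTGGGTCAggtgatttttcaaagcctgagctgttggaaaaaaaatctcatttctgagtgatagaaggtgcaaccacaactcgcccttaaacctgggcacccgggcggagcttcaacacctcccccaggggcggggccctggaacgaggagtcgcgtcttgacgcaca

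Shares below are of windows, whereas a member was counted when any of its windows matched, and 11 members had several. The MEF2-type motif was found in 3.2% of all 32851 windows and in those of 4 members, Kbtbd12, Kbtbd13, Klhl33 and Klhl41, all of the striated-muscle list. Klhl30 and Klhl40, of the same list, were not among them. CAGCTG, the E-box that myogenic factors favour, was in 13% of all windows and in those of 9 members: Btbd19, Klhl4, Klhl5, Klhl6, Klhl13, Klhl21, Klhl35, Klhl40 and Klhl41. In Klhl40 it stood 10 to 5 bases before the start. In Klhl41 it stood 127 to 122 bases before the start and the MEF2-type motif 63 to 54. In Kbtbd13 the MEF2-type motif stood 140 to 131 bases before the start and TATAAA, on the opposite strand, 119 to 114. The antioxidant-type motif stood 168 to 160 bases before the start in Btbd6 and 247 to 239 in Kbtbd13, on the opposite strand in both, and 10.2% of all windows held it. CACGTG was in 6.02% of all windows and in 4 members, TATAAA in 12.4% and in 4, and GTAAACA in 3.17% and in 0. Each match describes letters, not binding.

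Btbd6, an adaptor for the transcription factor PLZF, fell in cast legs at days 2 and 14. At day 2 its signal ran from 68.5 to 121 in cast legs (median 96.9, n = 10) and from 122 to 144 in control legs (median 136, n = 9). No cast leg reached the lowest control leg, and the cast leg was lower in 9 of 9 pairs (-0.46, SE 0.07, adjusted p = 3.83e-08). By day 14 the cast legs ran from 98.2 to 145 (median 122) and the control legs from 136 to 179 (median 146), with a difference of -0.31 (SE 0.07, adjusted p = 7.14e-04). Right legs in the tenotomy cohort gave 125, 130, 100, 111 and 120 at day 14, and the left legs 160, 131, 153, 154 and 162. The groups did not overlap at days 7 and 14, with differences of -0.34 (SE 0.08, adjusted p = 2.25e-04) and -0.36 (SE 0.09, adjusted p = 0.0018). At day 2 the difference of -0.25 (SE 0.09, adjusted p = 0.0254) was lost without right-leg replicate 3 (-0.18, adjusted p = 0.161), left-leg replicate 2 (-0.24, adjusted p = 0.0509) or left-leg replicate 4 (-0.21, adjusted p = 0.0968). Against sham the right legs were at -0.34, -0.33 and -0.57, all called, with no overlap at days 2 and 14, and the day 2 call was lost without right-leg replicate 3 (-0.27) or sham replicate 3 (-0.29). Btbd6 had a single probe set.

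Btbd1, a BTB protein that binds topoisomerase I, stood apart at day 2 of the tenotomy cohort. Its right legs gave 1900, 2389, 1823, 1999 and 1785 and its left legs 2675, 3262, 2792, 2617 and 2968, with no overlap (-0.54, SE 0.09, adjusted p = 4.94e-07). The right legs were also below the 3 sham muscles, which gave 3047, 3008 and 3138 (-0.64, adjusted p = 9.89e-07). A second probe set gave -0.60 right against left at day 2, and the differences at days 7 and 14 (-0.15 and -0.12) were not called. Of the 11 Btbd members, 2 fell at day 2 of casting (Btbd6 and Btbd7), 0 were called at day 7, and at day 14 Btbd6 and Btbd2 (-0.25) fell and Btbd3 (0.25) rose. With probe sets averaged, Btbd3 gave -0.03 and Btbd2 lost its call (adjusted p = 0.0548), as did Btbd7 (-0.12, adjusted p = 0.445). Among tenotomy-cohort legs Btbd19 rose at day 2 (0.38), Btbd11 at day 7 (0.39) and Btbd9 (0.46) and Btbd10 (0.30) at day 14. Without right-leg replicate 1 of its day, Btbd9 gave 0.38 (adjusted p = 0.0986), Btbd10 gave 0.26 (adjusted p = 0.0698) and Btbd19 gave 0.34 (adjusted p = 0.109), so each lost its call. Btbd19 also lost it without right-leg replicates 3, 4 or 5 or left-leg replicates 1 or 2 (0.26 to 0.38), Btbd9 without right-leg replicate 2 or left-leg replicates 1 or 5 (0.32 to 0.43), and Btbd10 without left-leg replicates 3 or 5 (0.26 and 0.28).

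Apart from Kbtbd13 and Kbtbd12, 6 Kbtbd members were tested. Kbtbd11 had large differences in the tenotomy cohort (1.23, 0.88 and 0.92 at days 2, 7 and 14, adjusted p from 2.37e-10 to 4.77e-06) in the probe set used, whereas its other 3 probe sets gave -0.50, 0.47 and 0.03 at day 2 and -0.43, -0.31 and -0.02 at day 14. With the probe sets averaged the values were 0.31, 0.10 and 0.04, and the calls were lost. Kbtbd8 fell at day 2 of casting (-0.38, SE 0.15, adjusted p = 0.048) and at day 14 of the tenotomy cohort (-0.82, SE 0.21, adjusted p = 0.00141, right leg lower in 4 of 4 pairs). The first of these lost its call in 8 of the 10 other settings and the second with probe sets averaged (-0.51, adjusted p = 0.0681). Kbtbd3 rose at day 14 of casting (0.31, SE 0.11, adjusted p = 0.0351, 8 of 9 pairs). This Kbtbd3 call did not hold under quantile normalization (0.23, adjusted p = 0.141). It also ended without the arrays whose low end was raised (0.30, adjusted p = 0.0578) and without the replicate block (adjusted p = 0.0521). A fit of these groups alone ended it too (adjusted p = 0.0793). Kbtbd4 fell at day 14 of the tenotomy cohort (-0.30, adjusted p = 0.0397). Kbtbd4 lost its call without left-leg replicates 1, 2, 3 or 5 or right-leg replicates 1, 2 or 3, with the value nearest 0 (-0.16, adjusted p = 0.363) without right-leg replicate 2. Kbtbd2, an adaptor for the PI3-kinase regulatory subunit, and Kbtbd7 were called in no leg comparison.

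Among the other Klhl members, Klhl23 ran opposite ways in the cohorts at day 14, the only member to do so, as did 0.299% of all genes. Its signal in cast legs was 118.9 to 184 at day 2 (median 160, n = 10), 114 to 151 at day 7 (median 131, n = 7) and 89.9 to 164 at day 14 (median 138, n = 9). In control legs it was 107 to 187 (median 160), 145 to 204 (median 171) and 166 to 221 (median 178.5). The ranges overlapped widely at day 2, narrowly at day 7 and did not overlap at day 14. The differences were -0.38 at day 7 (SE 0.12, adjusted p = 0.0235) and -0.48 at day 14 (SE 0.11, adjusted p = 6.24e-04), and the cast leg was lower in 7 of 7 and 9 of 9 pairs. The first lost its call without 3 arrays with a raised low end, which were cast replicate 3 of day 7, cast replicate 6 of day 14 and sham replicate 8 of day 14 (-0.35, adjusted p = 0.0752).

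The right legs of the tenotomy cohort gave Klhl23 signals of 67.7, 94.1, 93.3, 89.4 and 74.8 at day 2, against 128, 145, 127, 151 and 143 in the left legs. At day 14 the right legs gave 232, 245, 341, 370 and 450, against 220, 186, 184.5, 138 and 233. The right legs lay below all left legs at day 2 and above 4 of the 5 at day 14, where the lowest right leg (232) fell just short of the highest left leg (233). The differences were -0.71 (SE 0.14, adjusted p = 1.74e-05) at day 2 and 0.72 (SE 0.14, adjusted p = 4.54e-05) at day 14, and the change between these days was 1.43 (adjusted p = 1.8e-07). In casting the same change was -0.55 (adjusted p = 0.00528). The difference between the cohorts was -0.78 at day 2 (adjusted p = 0.000151) and 1.20 at day 14 (adjusted p = 2.94e-07). Against sham, the right legs were at -1.31 at day 2 and 0.71 at day 14 (adjusted p = 4.37e-10 and 8.26e-06), and the left legs at -0.60 at day 2 (adjusted p = 0.013). The left-leg call rested on 3 sham muscles and was lost without sham replicate 2, when no member was called in that comparison. Klhl23 had a single probe set.

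**Figure D4:**
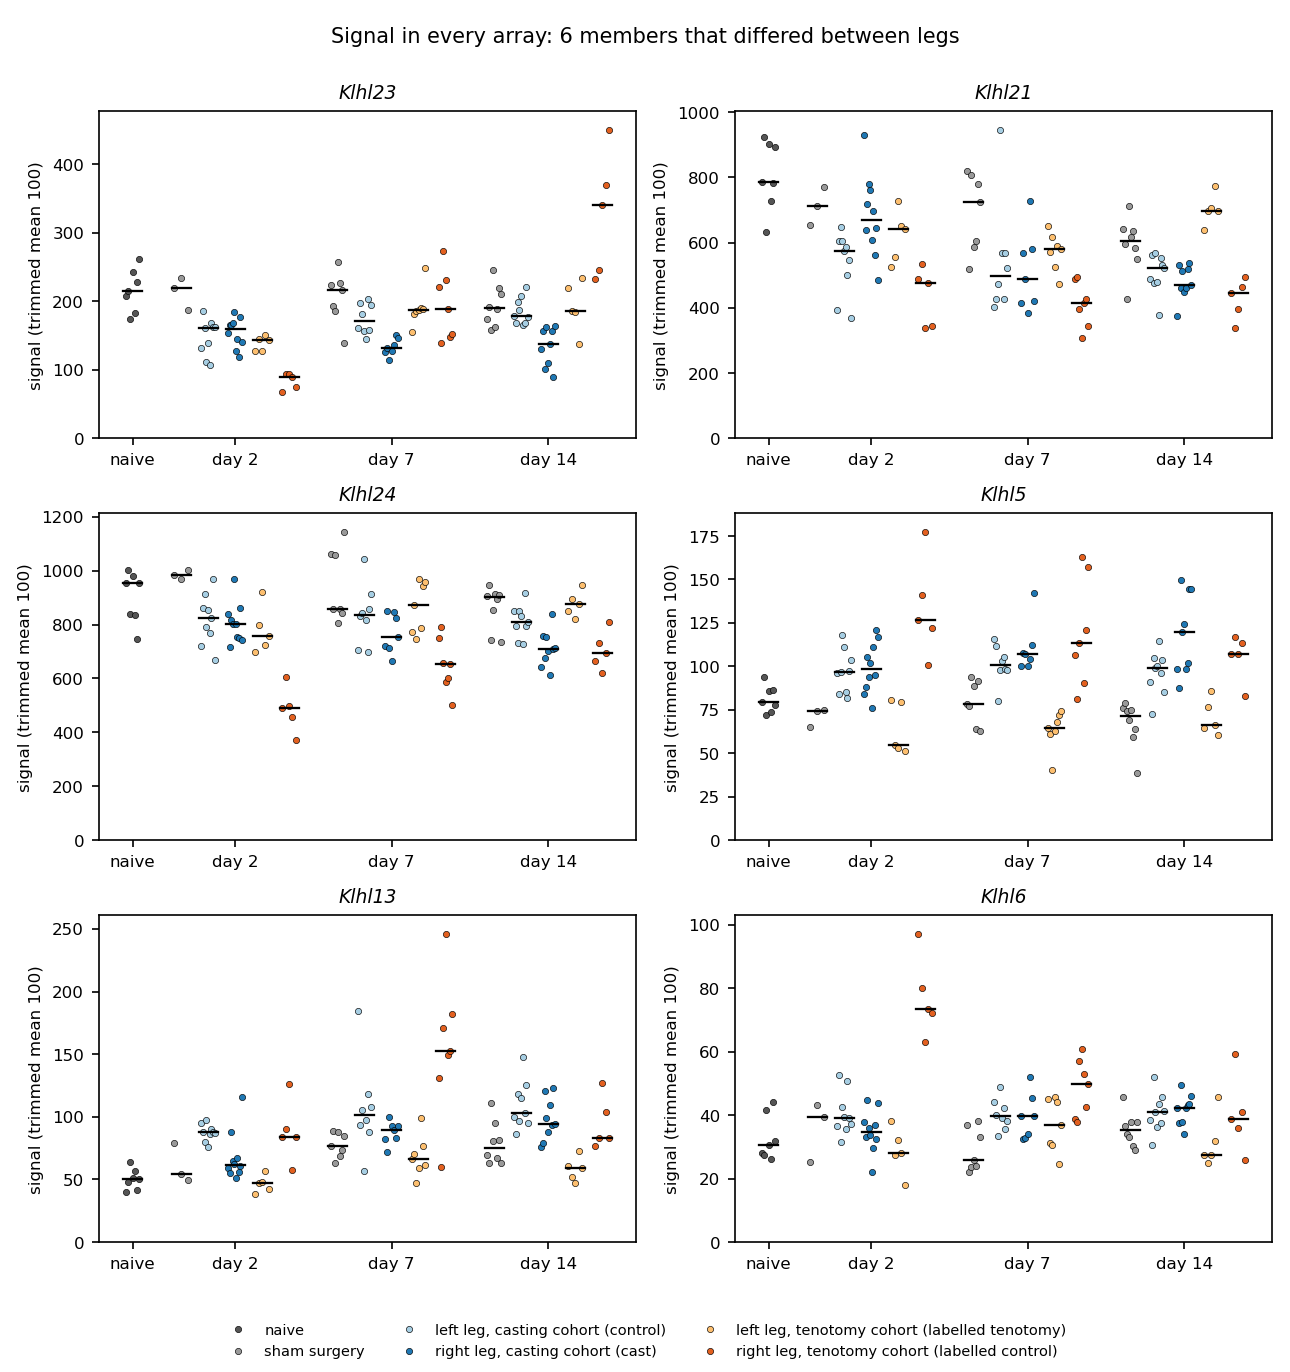
Signal of Klhl23, Klhl21, Klhl24, Klhl5, Klhl13 and Klhl6 on every array (points), by group, with a line at each group's median. In right legs of the tenotomy cohort Klhl23 runs from 67.7 to 94.1 at day 2 and from 232 to 450 at day 14, and Klhl6 at day 2 runs from 63.2 to 97.2, above the 17.9 to 38.1 of the left legs.

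In the tenotomy cohort 4 members, Btbd6, Kbtbd13, Klhl21 and Klhl24, were lower in the right leg on all 3 days, as were 6.45% of all genes. The same 4 were lower than sham in right legs on all 3 days, as were 8.47%. With probe sets averaged, Klhl21 lost this call against sham on each day (-0.26, -0.39 and -0.33, adjusted p = 0.495, 0.0872 and 0.213). Klhl24, which targets intermediate filament proteins, gave 491, 606, 497, 457 and 370 in right legs at day 2 and 699.7, 797, 921, 726 and 757 in left legs. At day 14 the right legs gave 664.5, 732, 621, 693.5 and 809.9 and the left legs 849, 896, 820, 875 and 945. The groups did not overlap on either of these days. The differences were -0.69 (SE 0.09, adjusted p = 1.14e-09) at day 2, -0.42 (SE 0.08, adjusted p = 1.11e-05) at day 7 and -0.32 (SE 0.10, adjusted p = 0.00814) at day 14. The other 4 probe sets of Klhl24 gave smaller differences at day 2 (-0.17 to -0.26), and with probe sets averaged the day 14 value was -0.18 (adjusted p = 0.167). In the probe set used, Klhl24 was called in no casting comparison. At day 2 of casting its other 4 probe sets had the opposite sign, and 1 of them was called in the fit over all probe sets.

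Klhl21, an adaptor for Aurora B kinase, was higher in the cast leg at day 2 in 9 of 9 pairs, with signals of 485 to 930.1 (median 670) against 370.0 to 649 in control legs (median 573). That difference was 0.35 (SE 0.10, adjusted p = 0.00674). The tenotomy cohort's right legs gave 444, 339, 396, 464 and 496 at day 14 and the left legs 637, 695.5, 707, 774 and 697, with no overlap. The differences were -0.52, -0.49 and -0.72 at days 2, 7 and 14 (SE 0.14, 0.12 and 0.14, adjusted p = 0.00161, 5.60e-04 and 4.39e-05). A second, dimmer probe set of Klhl21 gave -0.26 at day 2 of casting and -0.28, 0.02 and 0.10 in the tenotomy cohort. All 4 calls were lost with the probe sets averaged (0.04, -0.40, -0.23 and -0.31). Klhl12, an adaptor for Sec31 and Dishevelled, fell in right legs of the tenotomy cohort at day 2 (-0.30, adjusted p = 0.0032) and day 7 (-0.33, adjusted p = 1.91e-04), and in cast legs at day 14 (-0.21, adjusted p = 0.0233, or -0.18 and 0.0601 without the arrays whose low end was raised).

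Higher in the right leg on all 3 days of the tenotomy cohort were 5 members, Kbtbd11, Klhl5, Klhl9, Klhl11 and Klhl13, as were 8.98% of all genes. Against sham on all 3 days these were Kbtbd11, Klhl2, Klhl5, Klhl9, Klhl11 and Klhl36 (9.69% of all genes). With probe sets averaged, Kbtbd11 lost this call on each day (0.42, 0.13 and 0.08), as did Klhl11 (-0.04, 0.29 and 0.24). In the same setting Klhl5 (0.24, adjusted p = 0.38) and Klhl2 (0.40, adjusted p = 0.0577) lost it at day 14. With quantile normalization Kbtbd11 also lost it on each day, Klhl11 at day 2 (0.29) and Klhl36 at days 7 and 14 (0.63 and 0.72). The day 14 call of Kbtbd11 was lost without right-leg replicate 2, 3, 4 or 5 (0.34 to 0.39). Klhl5 gave 127, 141, 177, 101 and 122 in right legs at day 2 and 80.6, 54.9, 53.3, 79.3 and 51.5 in left legs. No left leg reached a right leg at day 2 or day 7, and the differences were 1.02 (SE 0.14, adjusted p = 1.53e-09), 0.85 (SE 0.12, adjusted p = 4.11e-09) and 0.55 (SE 0.14, adjusted p = 0.00189). Its second probe set gave 0.55, 0.35 and 0.03, and with both averaged the day 14 call was lost (0.29, adjusted p = 0.364). Klhl9 and Klhl13, both adaptors for Aurora B, gave 0.50, 0.31 and 0.32 (Klhl9) and 0.84, 1.08 and 0.66 (Klhl13). For Klhl9 the groups did not overlap at days 2 and 14, and for Klhl13 they did not overlap on the same days. With probe sets averaged the day 14 value of Klhl13 was 0.23 (adjusted p = 0.352). Klhl11 gave 0.51, 0.61 and 0.50 in the probe set used, but its other 2 gave -0.23 and -0.38 at day 2, and the average was -0.03 at days 2 and 7.

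Klhl6, known from B cells, had the largest right-minus-left difference among the called values of the 51 members. Its right legs gave 97.2, 79.96, 63.2, 73.6 and 72.1 at day 2 of the tenotomy cohort and its left legs 38.1, 27.6, 32.1, 28.1 and 17.9. The groups were far apart, with the right leg higher in 5 of 5 pairs (1.33, SE 0.16, adjusted p = 6.44e-12). The difference was 0.37 at day 7 (SE 0.13, adjusted p = 0.0232) and 0.30 at day 14, which was not called. The day 7 call was lost when the animal was fitted as fixed (adjusted p = 0.0516) and with quantile normalization (0.26, adjusted p = 0.158). It was also lost with only the groups compared (adjusted p = 0.088). Between days 2 and 14 the difference changed by -1.03 (adjusted p = 0.000711). In cast legs at day 2 Klhl6 ran from 22.0 to 44.8 and in control legs from 31.4 to 52.7, and it was called on no casting day. At day 2 all 10 macrophage markers were called higher in the right legs of the tenotomy cohort, with a summed signal of 12982 to 16474 against 869 to 1827 in the left legs, and 0 of the 5 lymphocyte markers tested were called. The lymphocyte markers summed to 22.7 to 45.7 in right and 24.5 to 48.3 in left legs, and none lay above the 40th percentile on all arrays. The macrophage list was also higher in right legs at day 7 (10 of 10 called) and day 14 (9 of 10), and 4, 5 and 4 of 5 fibroblast markers were called higher at days 2, 7 and 14. The part of these cells in the differences of Klhl6, Klhl5, Klhl9, Klhl11, Klhl13 and Kbtbd11 was not tested.

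At day 2 of casting the remaining calls were mostly small. Klhl25, an adaptor for 4E-BP1 and ATP-citrate lyase, ran from 33.1 to 67.3 in cast legs (median 49.4, n = 10) and from 48.0 to 89.3 in control legs (median 69.2, n = 9). The groups overlapped, the cast leg was lower in 9 of 9 pairs, and the difference was -0.50 (SE 0.11, adjusted p = 1.56e-04). Klhl22, an adaptor that acts on DEPDC5 in amino acid sensing, rose from 329 to 440 in control legs (median 377) to 365 to 562 in cast legs (median 486), higher in 9 of 9 pairs (0.29, SE 0.07, adjusted p = 2.04e-04). Klhl7 rose by 0.24 (SE 0.07, adjusted p = 0.00314), again in 9 of 9 pairs. Klhl28 (-0.38), Klhl17 (-0.30) and Klhl13 (-0.38) fell, with adjusted p of 0.00183, 0.00228 and 0.0231, the last becoming 0.0509 with probe sets averaged. On day 14 the only casting calls were Klhl8 (-0.30, SE 0.09, adjusted p = 0.0151, lower in 9 of 9 pairs, and -0.17 with adjusted p = 0.159 when probe sets were averaged) and those of Klhl23, Klhl12, Kbtbd13, Kbtbd3, Btbd2, Btbd3 and Btbd6 given above. Macrophage markers were lower in cast than control legs at day 2 (5 of 10 called lower, 0 higher) and higher at day 14 (10 of 10), and 0 of 10 fibre markers were called on any casting day.

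At day 14 of the tenotomy cohort further members were called. Klhl8 fell (-0.39, SE 0.12, adjusted p = 0.0126), and lost the call without right-leg replicate 3 (-0.27, adjusted p = 0.132) or replicate 1 (-0.34, adjusted p = 0.0509). Klhl17 (0.31), Klhl28 (0.38) and Klhl4 (0.86) rose with adjusted p of 0.0275, 0.0333 and 0.0391. Klhl28 lost its call without any left-leg array except replicate 3 or any right-leg array except replicate 5 (0.33 to 0.38). It also lost it with probe sets averaged (0.088, adjusted p = 0.71) and with quantile normalization (0.29, adjusted p = 0.133). Klhl17 lost its call without left-leg replicates 1, 3 or 4 or right-leg replicates 1 or 5 (0.26 to 0.30), and with probe sets averaged (0.23, adjusted p = 0.0789). Klhl4 lost its call without left-leg replicates 2, 3 or 4 or right-leg replicates 1, 2 or 4 (0.58 to 0.86). Its signal was low (median 13.5) and lay above the 40th percentile on only 57 arrays. With a pseudocount of 16 its day 14 value was 0.41 and no longer called (adjusted p = 0.0679). Quantile normalization (0.75, adjusted p = 0.0634) and a fit of these groups alone (adjusted p = 0.240) also ended this call. At day 7 Klhl4 (0.72) and Klhl42 (0.54) rose with adjusted p of 0.0281 and 0.0467. Klhl42 lost this call in 8 of 10 other settings, with adjusted p up to 0.178, and Klhl4 lost it with only the groups compared (adjusted p = 0.156). At day 2 Klhl7 fell (-0.26, adjusted p = 0.0174), a call lost without right-leg replicate 1 (-0.18, adjusted p = 0.128), right-leg replicate 5 (-0.22) or left-leg replicate 2 (-0.23).

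Set side by side, 19 of the 51 members were called on at least 1 casting day and 28 on at least 1 day of the tenotomy cohort, 13 of them in both. These are 37.3%, 54.9% and 25.5% of the members, near the shares of all genes (33.7%, 48.6% and 22.7%). At day 2 Btbd6, Kbtbd13 and Klhl41 were lower in the right leg in both cohorts (3.91% of all genes were), and Klhl7, Klhl13, Klhl21 and Klhl40 ran opposite ways (6.21% of all genes did). At day 7 Kbtbd13 was lower in both (2.81%). At day 14 Btbd6, Kbtbd13 and Klhl8 were lower in both (2.83%). Called in casting and not in the tenotomy cohort were Btbd2, Btbd3, Btbd7, Kbtbd3, Klhl22 and Klhl25. Of these, Klhl25 differed between the cohorts at day 2 (0.68, SE 0.18, adjusted p = 0.0019), and no difference between the cohorts was called for the other 5 on any day.

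**Figure D5:**
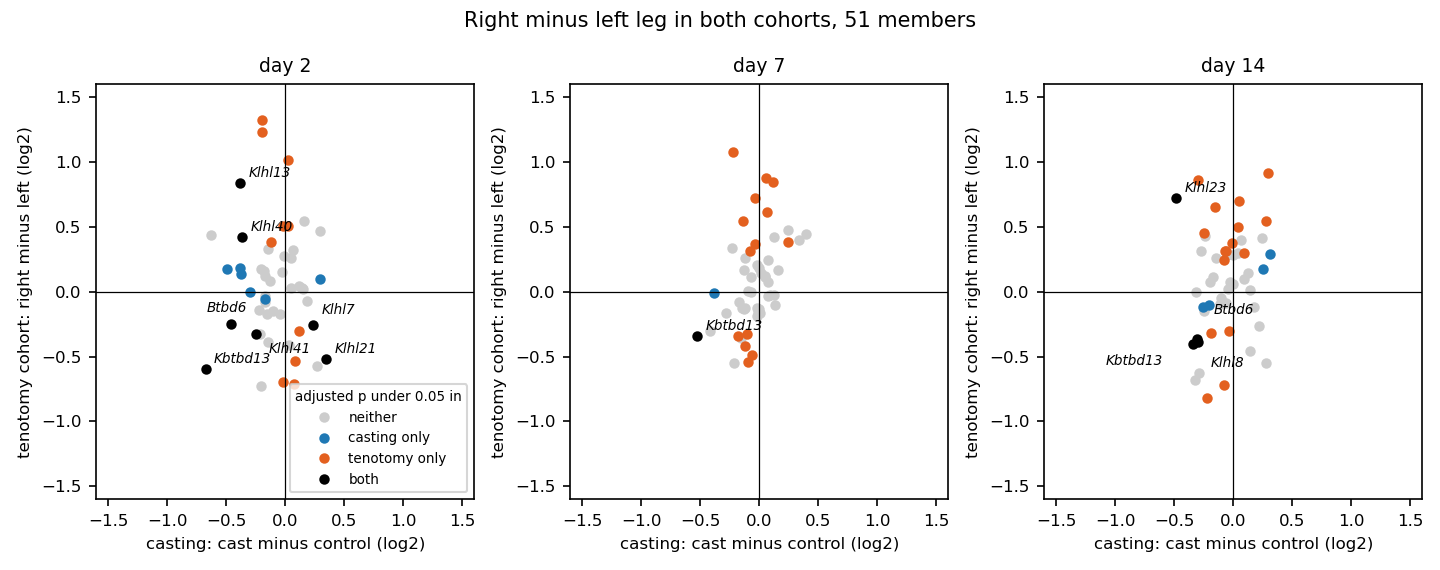
Right minus left log2 difference of each tested member in the casting cohort (horizontal axis) against the tenotomy cohort (vertical axis), 1 panel for each day. Kbtbd13 and Btbd6 lie to the lower left at days 2 and 14, Klhl40 lies to the upper left at day 2, and Klhl23 moves from -0.71 on the vertical axis at day 2 to 0.72 at day 14.

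The difference between the cohorts (tenotomy cohort minus casting, each right minus left) was called for 19 members at day 2 (34.1% of all genes), 12 positive and 7 negative. It was called for 5 at day 7 (18.8%), all positive, and 8 at day 14 (8.14%), 7 positive and 1 negative. Klhl9, Klhl11, Klhl13 and Kbtbd11 were called on all 3 days, each time positive, as were 3.11% of all genes. With probe sets averaged, Klhl11 gave 0.05, -0.0022 and -0.0301 and Kbtbd11 0.42, -0.0669 and -0.34, none of them called, and Klhl13 lost its day 14 call (0.40). At day 14 Klhl11 (0.42 to 0.45) and Kbtbd11 (0.54 to 0.60) each lost the call in 5 of 10 fits that left out 1 array. The counts at days 7 and 14 were 2 and 3 with probe sets averaged, and 8 at day 7 with array weights. For Klhl9, which had no other probe set, these values were 0.52, 0.39 and 0.39 (adjusted p = 1.65e-05, 0.00155 and 0.00815). With day as the contrast, 8 members changed between days 2 and 14 in casting (14.3% of all genes), 3 upward and 5 downward, and 5 in the tenotomy cohort (8.15%), 3 upward and 2 downward.

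Against sham, 22, 20 and 26 members were called in right legs of the tenotomy cohort at days 2, 7 and 14, with 35%, 41.2% and 35.9% of all genes called. Higher were 10, 10 and 16 members (19.6%, 23.5% and 20.6% of all genes) and lower were 12, 10 and 10 (15.5%, 17.7% and 15.3%). In left legs 5, 10 and 9 members were called, against 9.99%, 19.1% and 20.7% of all genes. The left-leg count at day 2 was 0 without sham replicate 2, and 1 without sham replicate 1 or sham replicate 3, which leaves 2 sham muscles in each case, and it was 2 or 3 when a left-leg array was left out. Klhl2, an adaptor for WNK kinases, was higher than sham in right legs on all 3 days (1.27, 1.15 and 0.85, adjusted p = 1.02e-04, 1.36e-06 and 9.13e-04) and in left legs at day 7 (0.75, adjusted p = 0.00449). At day 14 its other probe set had the opposite sign, and with both averaged the value was 0.40 and no longer called (adjusted p = 0.0577). It was called in no leg comparison. Klhl36 gave 1.19, 0.75 and 0.90 in right legs, with a signal above the 40th percentile on only 38 arrays, and it lost its call without sham replicate 3 at day 2 (1.04) or right-leg replicate 4 at day 14 (0.79).

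Few members were called between sham and naive muscle. By limma, 0 members were called sham against naive at day 2 and 0 at day 7, with 5 at an unadjusted p under 0.05 on each of these days, where 0% and 0.63% of all genes were called. At day 14 the count was 3 (2.26% of all genes): Klhl33 (-0.81), Klhl21 (-0.44) and Klhl13 (0.60). Without the 3 arrays whose low end was raised, Klhl33 (-0.79, adjusted p = 0.0641) and Klhl21 (-0.43, adjusted p = 0.0609) lost the call and Klhl13 kept it. The control legs of cast animals, averaged over days, differed from naive muscle in 23 members, 16 higher and 7 lower, against 32.6% of all genes. The highest values were those of Klhl13 (0.94, SE 0.13, adjusted p = 2.44e-09), Klhl2 (0.70) and Kbtbd7 (0.66), and the lowest were those of Klhl33 (-0.89), Klhl21 (-0.63) and Kbtbd3 (-0.43). Klhl13 ran from 39.7 to 63.7 in naive muscle (median 50.5, n = 7), from 75.7 to 97.3 in control legs at day 2 (median 87.9, n = 9) and from 51.1 to 116 in cast legs (median 61.6, n = 10). Its control legs at day 2 lay above every naive muscle, and the cast legs overlapped both groups. Naive and control muscles come from different animals and opposite legs.

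The rest of the pathway was read from lists chosen for their function. Of 23 tested genes of the cullin-3 core and the Nedd8 cycle, 3 rose and 6 fell at day 2 of casting, 2 and 4 at day 7, and 1 and 2 at day 14. Right against left in the tenotomy cohort, 6 fell on each day, and 1, 2 and 1 rose at days 2, 7 and 14. For comparison, 11%, 4.22% and 7.17% of all genes rose and 13.3%, 4.55% and 6.04% fell at the casting days, and 20.8%, 18.3% and 13.5% rose and 15.9%, 14.6% and 9.71% fell right against left in the tenotomy cohort. Cul3 itself averaged 1203 ± 157 in right legs at day 2 (SD, n = 5) against 1979 ± 178 in left legs (n = 5), with no overlap. Its differences were -0.72 (adjusted p = 1.98e-09), -0.39 (adjusted p = 9.19e-05) and -0.45 (adjusted p = 3.43e-04) at days 2, 7 and 14, and it was called on no casting day (0.11, 0.12 and 0.08). Dcun1d2, a Nedd8 ligase factor, fell at day 2 in both cohorts (-0.60 and -0.62), and Senp8, the Nedd8 protease, fell on all 3 casting days (-0.51, -0.36 and -0.41). Rbx1 was called once, higher in right legs of the tenotomy cohort at day 14 (1.24, adjusted p = 0.0304). Cand1 rose in right legs of the tenotomy cohort at days 2 and 7 (0.77 and 0.64). Against sham, 13, 19 and 16 of the 23 genes were lower in these legs at days 2, 7 and 14 and 1 was higher on each day, with medians of -0.33, -0.34 and -0.36. Lower there were 15.5%, 17.7% and 15.3% of all genes and higher 19.6%, 23.5% and 20.6%, with medians of 0.04, 0.07 and 0.07 over all genes.

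Among 25 tested BTB adaptors with other names, 3 rose and 6 fell at day 2 of casting, 0 were called at day 7, and 6 fell at day 14. Right against left in the tenotomy cohort, 4 rose and 9 fell at day 2, the same numbers held at day 7, and 3 rose and 6 fell at day 14. The shares of all genes are those given for the cullin-3 list, the highest of them being 20.8% (higher) and 15.9% (lower) at day 2 of the tenotomy cohort. Enc1, a kelch protein, averaged 149 ± 25.1 in right legs at day 2 against 42.5 ± 18.8 in left legs (n = 5 each), and its differences of 1.81, 1.35 and 1.52 had no overlap on any day (adjusted p from 4.12e-12 to 1.3e-08). Keap1, the adaptor for Nrf2, rose at day 2 of casting (0.26, adjusted p = 1.06e-04) and fell in right legs of the tenotomy cohort (-0.31, -0.27 and -0.26). Of 16 partners and substrates, 1 rose and 3 fell, 1 and 1, and 1 and 3 at the casting days, and 3 and 7, 3 and 6, and 2 and 2 right against left in the tenotomy cohort. The same shares of all genes stand beside these counts. Lmod3, the leiomodin that KLHL40 stabilises, fell in all 6 leg comparisons (-0.47, -0.64 and -0.46 in casting, -0.94, -0.86 and -0.31 in the tenotomy cohort). Neb, which encodes nebulin, fell in right legs of the tenotomy cohort at days 2 and 7 (-0.56 and -0.32). Eif4ebp1, which encodes 4E-BP1, rose in cast legs at days 2 and 7 (0.88 and 0.50) and Ppp2r5b, a subunit of the phosphatase PP2A, fell at days 2 and 14 (-0.34 and -0.36).

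In the 6 leg comparisons 34 members were called at least once, as were 59.6% of all genes, and 17 never: Btbd17, Btbd18, Kbtbd2, Kbtbd7, Kbtbd12, Klhl1, Klhl2, Klhl10, Klhl15, Klhl18, Klhl20, Klhl26, Klhl29, Klhl32, Klhl33, Klhl35 and Klhl36. Across all 21 comparisons 7 members, and 22.9% of all genes, were never called: Btbd17, Btbd18, Kbtbd12, Klhl10, Klhl18, Klhl26 and Klhl32. In the 6 leg comparisons and the 3 of right legs against sham, members with further probe sets had 79 values called in a fit over all probe sets. Of these, 52 had the same sign in all of these, 27 had the opposite sign in at least 1, and in 2 another probe set was called the opposite way. With the animal fitted as a fixed block, calls were also lost for Btbd10 (adjusted p = 0.0774), Klhl4 (0.256), Klhl17 (0.148) and Klhl28 (0.145) at day 14, Btbd11 (0.062) and Klhl42 (0.0503) at day 7 and Btbd19 (0.0616) at day 2 of the tenotomy cohort. In casting they were lost for Kbtbd8 at day 2 (0.0888) and for Btbd2 (0.0599) and Kbtbd3 (0.0726) at day 14.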

How the data were processed

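RNA of 111 muscles was hybridised to 1 array each. The authors deposited signal intensities on a linear scale, made with MAS5 and GCOS (versions not given) per the submitters' processing notes. Trimmed means of 99.955 to 99.965 show scaling to a common level, so values are relative. The number of arrays limits precision.

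Probe sets were assigned by the platform annotation: 34958 listed 1 gene, 932 several and 9211 none. The highest-mean single-gene probe set stood for its gene. A probe set was tested when above its array's 40th percentile (9.65 to 17.84) on at least 5 arrays. Log2(signal + 3.982) was fitted with limma 3.58.1 (R 4.3.3): 16 group means, animal as a random block (consensus correlation 0.0964), moderated variances with trend, and 21 comparisons, each adjusted by Benjamini-Hochberg over 16029 genes at 0.05. The steps were tested on simulated data. Samples of a group are separate animals. The pairing of legs comes from the labels' animal numbers; residuals of paired legs correlated at 0.0634 on average over 41 pairs, 13 above 0.1.

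The tenotomy-cohort contrast was planned as left minus right, and it was fitted and is given as right minus left. Left-right, right-sham and left-sham comparisons of a day share arrays. The members, lists and tests were chosen with earlier results of these data known. Named members were, for each leg comparison, the 5 called members of smallest adjusted p in each direction, plus the tested striated-muscle kelch genes (26 in all); from each pathway list, up to 3 by the same rule, with Cul3, Rbx1 and Keap1 whatever their values. Neb, Cand1 at day 2, Senp8 at day 7 and further members named with values were chosen after their values were seen. Alternatives were another pseudocount, no or a stricter filter, quantile normalization, other treatments of the animal, averaged probe sets, array weights, only the groups compared, leaving out 3 arrays with a raised low end (chosen after seeing the data), and leaving out single arrays.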

Additional observations from a re-analysis of the deposited data

Results flagged for a closer look

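In groups of 4 to 10 arrays the highest or lowest signal of a named member stood apart by Dixon's test at 95% in 24 of 390 groups tested, and chance gives about 1 in 20. Low single signals were those of Btbd1 in sham at day 7 (replicate 6, 2521), Btbd6 in left tenotomy-cohort legs at day 14 (replicate 2, 130.9), Klhl12 in left legs at day 2 (replicate 4, 173.1) and Klhl5 in left legs at day 7 (replicate 3, 40.65). In right legs of the tenotomy cohort they were Kbtbd11 at day 14 (replicate 1, 44.61), Klhl41 at day 14 (replicate 3, 3399), Klhl5 at day 14 (replicate 5, 82.82), Kbtbd3 at day 7 (replicate 2, 25.94), Kbtbd8 at day 7 (replicate 5, 13.13) and Klhl40 at day 7 (replicate 6, 935.6). In the casting cohort they were Kbtbd8 in cast legs at day 2 (replicate 2, 7.257), Klhl21 in control legs at day 14 (replicate 6, 377.2) and Klhl5 in control legs at day 7 (replicate 3, 80). In sham replicate 8 of day 14, an array with a raised low end, Klhl28 gave 75.64 and Klhl5 gave 38.71.

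High single signals were those of Klhl21 in control legs at day 7 (replicate 4, 945.3), Klhl41 in control legs at day 14 (replicate 2, 3575), Klhl23 in left legs at day 7 (replicate 7, 248.8) and Klhl28 in left legs at day 14 (replicate 3, 107.1). In cast legs they were Klhl30 at day 2 (replicate 8, 1214), Klhl30 and Klhl40 at day 7 (replicate 1, 973.1 and 2072), Klhl5 at day 7 (replicate 7, 142.3) and Klhl40 at day 14 (replicate 7, 1967). The day 7 cast leg of replicate 1 was high for both Klhl30 and Klhl40.

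The leg difference of some named members changed between days 2 and 14 (limma, day 14 minus day 2 of right minus left). In casting it rose for Kbtbd11 (0.49, adjusted p = 0.036), Kbtbd3 (0.48, adjusted p = 0.0152) and Klhl40 (0.42, adjusted p = 0.0252), and it fell for Klhl12 (-0.32, adjusted p = 0.0081), Klhl21 (-0.42, adjusted p = 0.0375), Klhl22 (-0.39, adjusted p = 0.00146), Klhl23 (-0.55, adjusted p = 0.00528) and Klhl7 (-0.35, adjusted p = 0.00515). In the tenotomy cohort it rose for Btbd1 (0.42, adjusted p = 0.0267), Klhl23 (1.43, adjusted p = 1.8e-07) and Klhl41 (0.57, adjusted p = 0.0012), and it fell for Kbtbd8 (-1, adjusted p = 0.0164) and Klhl6 (-1.03, adjusted p = 0.000711).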

How the results depend on the processing

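Precision is limited by the number of arrays (3 to 10 in a group), by 5 members that lay above the 40th percentile on under 50 percent of the arrays, and by probe sets of 1 gene that disagree. The 261 values compared were 238 called values of any tested member and the leg differences of striated-muscle members that were not called. Of these, 257 kept direction and side of the threshold with a pseudocount of 16, 254 with no filter and 258 with array weights. Quantile normalization ended 38 calls and made 5, with 0 reversed. Without the replicate block 14 calls were lost and 247 values kept direction and side, and with the animal as a fixed replicate block 19 of 120 calls were lost. Averaging the probe sets of a gene ended 72 of 238 calls and turned 15 values, 13 of them called before. Among 137 values in comparisons with 5 or fewer arrays in a group, 46 lost the call in at least 1 fit that left out 1 array. The 137 include leg differences of striated-muscle members that were not called and so had no call to lose. Counts of members called moved as follows. Averaged probe sets gave 11 rather than 20 at day 14 of the tenotomy cohort, and 2 rather than 5 and 3 rather than 8 for the difference between cohorts at days 7 and 14. Array weights gave 8 rather than 5 for that difference at day 7, 4 rather than 2 at day 7 of casting and 2 rather than 0 for sham against naive at day 7. The last count was also 2 with only the groups compared and 1 with a stricter filter. Only the groups compared gave 2 rather than 5 for left legs against sham at day 2. Without the 3 arrays whose low end was raised, 1 rather than 2 members were called at day 7 of casting and 1 rather than 3 for sham against naive at day 14. Leaving out 1 array at a time gave 15 to 20 (day 2) and 12 to 19 (day 14) right against left in the tenotomy cohort, 18 to 26 and 21 to 26 for right legs against sham, 0 to 3 and 7 to 11 for left legs against sham, 15 to 19 and 6 to 9 for the difference between cohorts, 4 to 6 for the change with day and 0 for sham against naive at day 2. Reversed values were Kbtbd12 right against left at day 14 (0.000275 with a stricter filter, 0.12 with the fixed block, 0.0251 averaged, -0.0996 to 0.0781 without 1 array, from a value near 0), and Klhl41 at day 7 of casting (-0.0078 without those 3 arrays). With probe sets averaged, Kbtbd12 at day 2 of casting gave 0.0358, Btbd3 at day 14 of casting -0.0334, Klhl11 right against left -0.0344 and -0.0286 at days 2 and 7, against sham at day 2 -0.0421, and between cohorts -0.0022 and -0.0301 at days 7 and 14. In the same setting Kbtbd11 in left legs against sham gave 0.11, 0.0352 and 0.0393, and between cohorts -0.0669 and -0.34 at days 7 and 14, Klhl20 in right legs against sham at day 14 gave -0.22, and Btbd1 in left legs against sham at day 14 gave -0.22. The cause was not tested.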
